A study of Danio rerio with 6 samples.

Results

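The microRNAs miR-10a to miR-10d and miR-196 of the zebrafish were followed in primordial germ cells, the embryonic cells that later form eggs and sperm. A row of the deposited table was taken as a member where its name was miR-10 with a letter from a to d, or miR-196 with a letter, on either arm of the hairpin. This gave 6 of the 134 mature microRNAs listed: miR-10a-5p, miR-10b-5p, miR-10c-5p, miR-10d-5p, miR-10d-3p and miR-196a-5p. Green fluorescent germ cells of the AB strain were picked from embryos of 3 ages given in hours post fertilization (hpf). These were the shield stage at 6 hpf, embryos with 3 somites at 11 hpf, and the prim-5 stage reached at 24 hpf. Each age had 2 libraries. The labels give gonad as the tissue at every stage, and they name neither the fluorescent reporter nor the number of cells or embryos per library. Whether both libraries of an age were collected separately is not said, so p-values speak only of the spread among these libraries, and this spread may be technical.

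MicroRNAs are short RNAs that guide Argonaute proteins to messenger RNAs, mainly through the seed, bases 2 to 8 from the 5′ end. Most miR-10 and miR-196 genes lie inside Hox clusters, the arrays of homeobox genes that pattern the body from head to tail. Those genes are expressed in trunk tissues together with nearby Hox genes. In zebrafish, miR-10 represses hoxb1a and hoxb3a in the spinal cord, and in the mouse miR-196 represses Hoxb8. Each hairpin yields a 5p and a 3p strand, one of which is usually kept.

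The listed sequences are shown with the seed in capitals, because the miR-10 members differ from each other by very few bases outside it.
miR-10a-5p: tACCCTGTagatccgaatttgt
miR-10b-5p: tACCCTGTagaaccgaatttgtg
miR-10c-5p: tACCCTGTagatccggatttgt
miR-10d-5p: tACCCTGTagaaccgaatgtgtg
miR-10d-3p: cAGATTCGgttttaggggagta
miR-196a-5p: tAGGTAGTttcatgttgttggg

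The 4 miR-10 5p arms shared the seed ACCCTGT, and no other listed microRNA had it at bases 2 to 8 or elsewhere. Counted from the 5′ end of miR-10a-5p, miR-10c-5p differed by A16G alone and miR-10b-5p by T12A and 1 added base at the 3′ end. miR-10d-5p differed from miR-10b-5p by T19G alone. The edit distance was therefore 1 for miR-10a-5p and miR-10c-5p and for miR-10b-5p and miR-10d-5p. No source used here says how the submitters assigned a read that matched more than 1 name, so counts of near-identical members carry that uncertainty. miR-196a-5p shared its seed with no other listed microRNA. The same 7 letters stood from base 3 in 7 let-7 members, which are shifted by 1 base relative to miR-196a-5p.

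Outside the members, the nearest sequences to the miR-10 5p arms were those of miR-100-5p and miR-99, shown here because their seed begins like that of miR-10 and then departs from it.
miR-100-5p: aACCCGTAgatccgaacttgtg
miR-99: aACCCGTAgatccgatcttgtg
The edit distance to miR-100-5p was 4 for miR-10a-5p and miR-10b-5p and 5 for miR-10c-5p and miR-10d-5p.

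The genes that carry these names were looked up by symbol in the RefSeq gene table of the assembly GRCz12tu, which was used only for names and gene order. Of 7 loci, 6 had a Hox gene next to or over them. mir10c lay between hoxb5a and hoxb4a, and dre-mir-10b-2 between hoxc5a and hoxc4a. mir10b-1 lay between hoxd4a and hoxd9a, and mir10a between hoxb5b and skap1. mir196a-1 lay between hoxc10a and hoxc9a, and mir196a-2 overlapped the gene model of hoxa9a. Gene models of hoxb3a, hoxc3a, hoxd3a and hoxb1b overlapped mir10c, dre-mir-10b-2, mir10b-1 and mir10a in turn, and that of hoxc3a also overlapped mir196a-1. mir10d stood apart, with lnpk on one side and mtx2 on the other. In zebrafish this is the remnant of a Hox D cluster that has lost its Hox genes. miR-10b-5p can come from either of its loci and miR-196a-5p from either of its own, and the mature sequences do not tell these apart.

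MicroRNA reads numbered between 35718 and 78973 per library, and 3 reads, the limit that a count of 0 allows, stood for 38.0 to 84.0 CPM. CPM are reads scaled to a total of 1000000 microRNA reads. PCR copies are not independent molecules, so these limits and the intervals below cover counting error only. Most reads were of the maternal-mRNA-clearing family miR-430, which took 87.6% and 90.6% in the 6 hpf libraries, 80.2% and 84.6% in those of 11 hpf, and 73.7% and 65.4% in those of 24 hpf. Shares are out of a fixed total, so the share of any other microRNA depends on that of miR-430, and 3 scales are given: CPM, CPM after the TMM scaling of edgeR, and the RPM values deposited by the authors. In libraries from picked cells, fewer cells that make a microRNA and fewer copies per cell cannot be told apart.

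Across the stages, miR-10a-5p and miR-10b-5p were present in every library, miR-10c-5p had reads at 24 hpf and none earlier, the miR-10d arms had reads in a single 24 hpf library, and miR-196a-5p was near 0 throughout. The 6 members together held 66 and 87 reads at 6 hpf, 166 and 115 at 11 hpf, and 376 and 504 at 24 hpf. Their share of all microRNA reads averaged 0.161% ± 0.034 (SD, n = 2) in the 6 hpf libraries, 0.302% ± 0.090 in those of 11 hpf and 0.600% ± 0.054 in those of 24 hpf. With the miR-430 family left out of the denominator, it averaged 1.47% ± 0.030 (SD, n = 2) for 6 hpf, 1.70% ± 0.21 for 11 hpf and 1.99% ± 0.20 for 24 hpf. Out of all microRNA reads the stages did not overlap. Out of the reads without miR-430 the step between 24 and 6 hpf was much smaller, and the libraries of 24 and 11 hpf overlapped narrowly. Members with at least 1 read numbered 3 in each 6 hpf library, 2 in each 11 hpf library, and 5 and 4 in the 24 hpf libraries. Of all 134 listed microRNAs, 71 and 73 had reads at 6 hpf, 80 and 82 at 11 hpf, and 100 and 95 at 24 hpf.

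miR-10a-5p, encoded beside hoxb5b, was the most abundant member at 6 and 11 hpf. It had 41 and 66 reads at 6 hpf, 112 and 74 at 11 hpf, and 132 and 190 at 24 hpf. By mean share of reads it ranked 24th, 21st and 24th of the 134 listed microRNAs at the 3 stages. Its level was 1148 and 1034 CPM at 6 hpf, 2472 and 1535 at 11 hpf, and 1974 and 2406 at 24 hpf. On this scale the 24 hpf libraries were both higher than either 6 hpf library and overlapped with those of 11 hpf. How many of all microRNAs stood higher at 24 hpf in CPM was not counted.

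After TMM scaling the order of the stages was lost for miR-10a-5p. The scaled level averaged 1655 ± 297 (SD, n = 2) in the 6 hpf libraries, 1887 ± 480 in those of 11 hpf and 1520 ± 124 in those of 24 hpf, with libraries of all stages overlapping. In the RPM values deposited by the authors it was 3.91 and 5.44 at 6 hpf, 7.84 and 8.20 at 11 hpf, and 11.3 and 8.95 at 24 hpf. No stage overlapped another on the authors' scale, where 50.7% of all tested microRNAs had both 24 hpf libraries above those of 6 hpf. Out of the reads without miR-430, the share of miR-10a-5p was lowest in both 24 hpf libraries, at 132 of 17602 and 190 of 27293. At 6 hpf it was 41 of 4429 and 66 of 6008, and at 11 hpf 112 of 8983 and 74 of 7404. How many of all microRNAs were lowest there was not counted. The direction of miR-10a-5p between 24 and 6 hpf thus differed with the denominator.

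miR-10b-5p, encoded in both the Hox C and Hox D clusters, was higher at each later stage on all 3 scales. No difference between stages passed the test after TMM scaling or with library size only, and 1 passed with the authors' totals. It had 23 and 20 reads at 6 hpf, 54 and 41 at 11 hpf, and 89 and 234 at 24 hpf. Its level was 644 and 313 CPM at 6 hpf, 1192 and 851 at 11 hpf, and 1331 and 2963 at 24 hpf. No stage overlapped another in CPM, a scale on which the share of all microRNAs without overlap was not counted. The 24 hpf libraries stood further apart than those of any earlier stage. After TMM scaling it was 811 and 565 at 6 hpf, 1073 and 857 at 11 hpf, and 1084 and 1764 at 24 hpf. The stages still did not overlap on the TMM scale, with the higher 11 hpf library just under the lower one of 24 hpf. On that scale 31.9% of all tested microRNAs had both 24 hpf libraries above those of 6 hpf. In the authors' RPM it was 2.19 and 1.65 at 6 hpf, 3.78 and 4.55 at 11 hpf, and 7.60 and 11.0 at 24 hpf. By mean share of reads it ranked 34th, 28th and 25th of the 134. Out of the reads without miR-430 the stages overlapped for miR-10b-5p. On that denominator 24 hpf replicate 1 held 89 of 17602 reads, and 6 hpf replicate 1 held a larger share, 23 of 4429.

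miR-10c-5p, encoded between hoxb5a and hoxb4a, had 0 reads in the 2 libraries of 6 hpf and the 2 libraries of 11 hpf, and 107 and 79 reads at 24 hpf. Its 24 hpf level was 1600 and 1000.3 CPM, and 9.13 and 3.72 in the authors' RPM. It ranked 34th of the 134 microRNAs at 24 hpf. The near-identical miR-10a-5p had 41 to 112 reads in each of the earlier libraries, none of which was assigned to miR-10c-5p. Over all listed microRNAs, 4 had 0 reads in the 4 earlier libraries and at least 10 in both 24 hpf libraries. miR-10c-5p was the highest of these in summed reads, with 186, followed by miR-182-5p with 131, miR-16c-5p with 89 and miR-210-5p with 68.

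**Figure D1:**
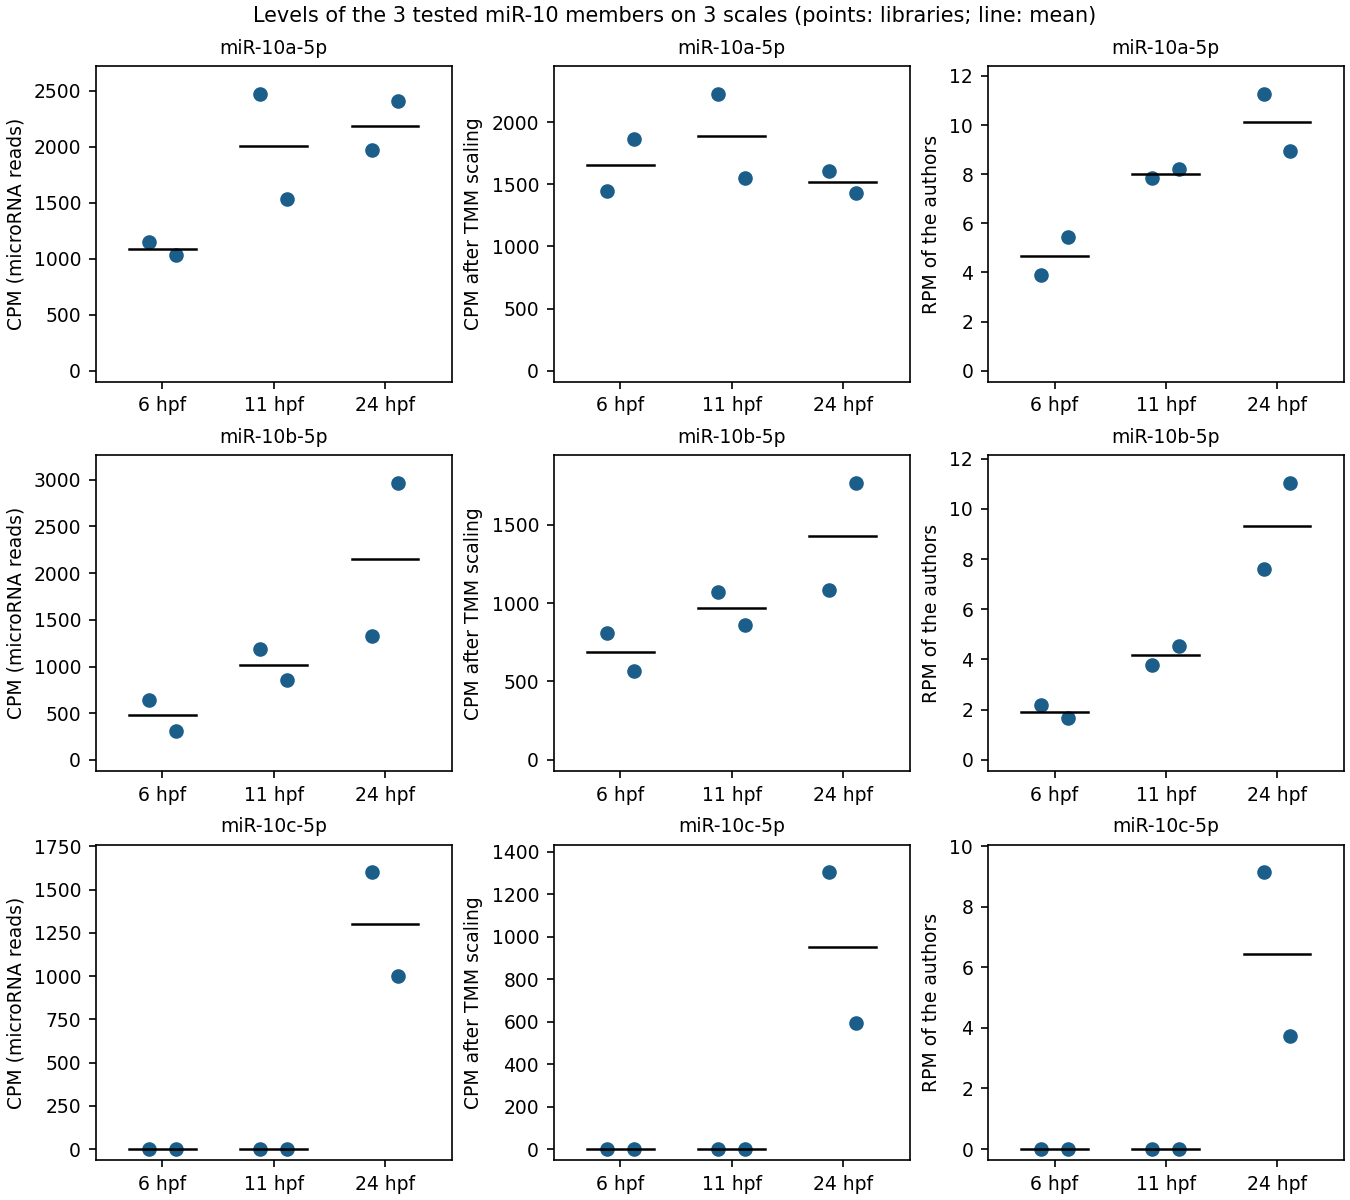
Level of miR-10a-5p, miR-10b-5p and miR-10c-5p (rows) by stage on 3 scales (columns: CPM, the same after TMM scaling, and the RPM of the authors). Points are the 2 libraries of a stage and lines their means. The mean of miR-10b-5p is highest at 24 hpf on every scale. That of miR-10a-5p is highest at 24 hpf on the outer scales and at 11 hpf on the TMM scale. The miR-10a-5p libraries of 11 and 24 hpf overlap in CPM and after TMM scaling. miR-10c-5p is at 0 until 24 hpf.

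The arms of miR-10d, whose locus is flanked by lnpk and mtx2, were seen in 1 library. miR-10d-5p had 37 reads in 24 hpf replicate 1, and miR-10d-3p had 11 reads there. In the other 24 hpf library and in the 4 earlier ones both arms had 0 reads. The 5p arm made up 77.1% of the 48 miR-10d reads (95% exact Clopper-Pearson interval 62.7% to 88.0%). In 24 hpf replicate 1 the 5p level was 553 CPM, at least 14.6-fold above the limit of 38.0 CPM that a count of 0 allowed in 24 hpf replicate 2. The gap between libraries of this stage was therefore larger than counting error. Among all listed microRNAs, 11 had at least 10 reads in 24 hpf replicate 1 and 0 in the other 5 libraries, and 2 had at least 10 reads in 24 hpf replicate 2 and 0 in the other 5. The 11 were both miR-10d arms, let-7d-5p, miR-124-3p, miR-135b-5p, miR-1388-5p, miR-181a-2-3p, miR-18c, miR-20a-3p, miR-30c-3p and miR-458-3p. Of these, miR-124-3p, a neuronal microRNA, had 32 reads. The 2 were miR-9-4-3p, also a neural microRNA, with 42 reads, and miR-499-5p, a muscle microRNA, with 22. The part of any of these in the miR-10d result was not tested.

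miR-196a-5p, from loci between more posterior Hox genes, had 2 and 1 reads at 6 hpf, 0 and 0 at 11 hpf, and 0 and 1 at 24 hpf. Each stage summed to no more than 3 reads, the limit that a count of 0 allows, so no fold is given. A difference between stages was not detectable at this depth.

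The make-up of the miR-10 5p reads does not depend on how libraries are scaled. Of the miR-10 5p reads, miR-10a-5p took 64.1% and 76.7% at 6 hpf, 67.5% and 64.3% at 11 hpf, and 36.2% and 37.8% at 24 hpf. Its share was thus lower in both 24 hpf libraries than in any earlier one, and the 24 hpf libraries were close to each other. The rest of the 24 hpf reads was divided unequally between the libraries. miR-10b-5p took 24.4% (95% exact interval 20.1% to 29.1%) in 24 hpf replicate 1 and 46.5% (42.1% to 51.0%) in replicate 2. miR-10c-5p took 29.3% (24.7% to 34.3%) in replicate 1 and 15.7% (12.6% to 19.2%) in replicate 2. These intervals did not overlap, so the 24 hpf libraries differed by more than counting error. In the earlier libraries a count of 0 allowed a miR-10c-5p share of up to 1.81% to 4.69%.

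Set against miR-10a-5p alone, miR-10b-5p made up 35.9% and 23.3% of the reads of both names at 6 hpf, 32.5% and 35.7% at 11 hpf, and 40.3% and 55.2% at 24 hpf. Both 24 hpf libraries lay above the 4 earlier ones, while the 6 and 11 hpf libraries overlapped. miR-10a-5p had more reads than miR-10b-5p in 5 of the 6 libraries, the exception being 24 hpf replicate 2. miR-10c-5p lay between them in 24 hpf replicate 1 and below both in replicate 2. With 2 libraries against 2, the smallest p that an exact two-sided permutation test allows is 0.333, so none was computed for these shares.

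**Figure D2:**
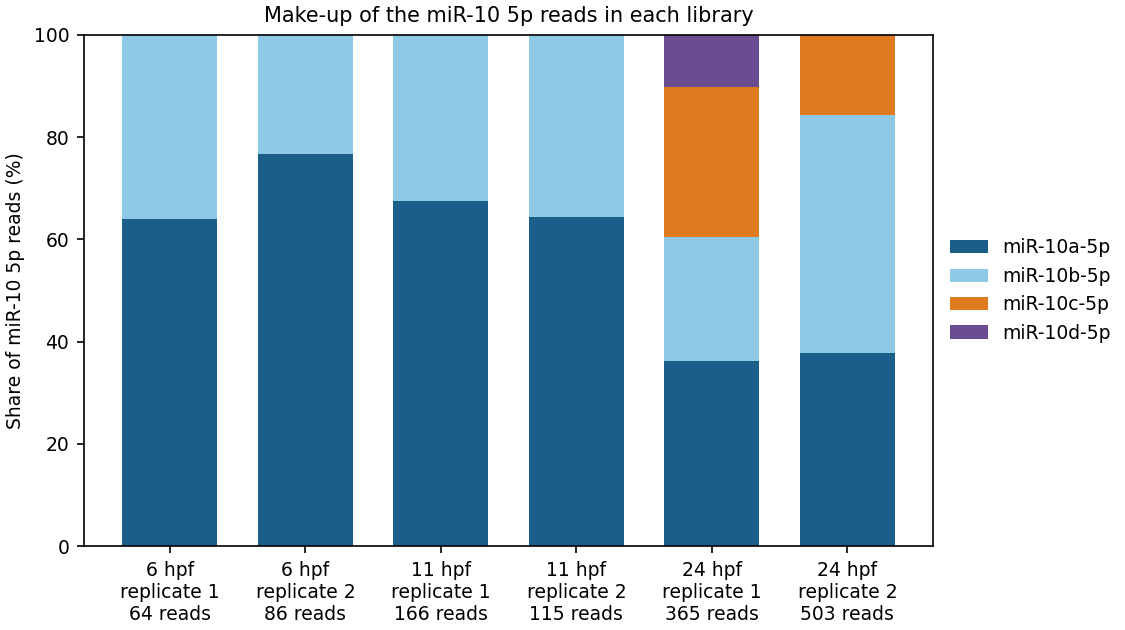
Share of the miR-10 5p reads (%) held by miR-10a-5p, miR-10b-5p, miR-10c-5p and miR-10d-5p in each of the 6 libraries, with the number of reads under each bar. miR-10a-5p holds 64.1% to 76.7% in the libraries of 6 and 11 hpf and 36.2% and 37.8% at 24 hpf, where miR-10c-5p appears in both libraries and miR-10d-5p in replicate 1.

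Stages were tested with edgeR's quasi-likelihood test on the counts of all 6 libraries, and 3 of the 6 members, miR-10a-5p, miR-10b-5p and miR-10c-5p, had enough reads to be tested among 69 microRNAs. miR-10c-5p passed that filter only through its 24 hpf reads, so its p-values are given as a description and nothing rests on them. Neither miR-10d arm was tested, and miR-196a-5p was not either. A change was called where the Benjamini-Hochberg adjusted p over all 69 was under 0.05.

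Between 24 and 6 hpf, edgeR called neither miR-10a-5p nor miR-10b-5p, against 17.4% of all tested microRNAs. That background was 12 microRNAs and moved with single libraries, to 4 when replicate 1 of 6 hpf was left out and 0 when its replicate 2 was. Omitting replicate 1 of 11 hpf gave 28 calls and omitting its replicate 2 gave 24, while dropping replicate 1 of 24 hpf gave 2 calls and dropping its replicate 2 gave 1. By edgeR, neither miR-10a-5p nor miR-10b-5p had an unadjusted p under 0.05, against 34.8% of all tested microRNAs. That of miR-10c-5p was under 0.05, as a description only. DESeq2 also called neither miR-10a-5p nor miR-10b-5p, against 23.2% of all tested microRNAs. Its unadjusted p was under 0.05 for miR-10b-5p and for 34.8% of all tested microRNAs, and, as a description only, for miR-10c-5p. miR-10b-5p differed by a log2 value of 1.05 (SE 0.47, 95% interval -0.22 to 2.32, edgeR adjusted p = 0.181), and its 24 hpf libraries stood above those of 6 hpf. Its value was 0.65 without 24 hpf replicate 2 and 1.58 without 24 hpf replicate 1. miR-10a-5p differed by -0.12 (SE 0.33, 95% interval -1.03 to 0.78, edgeR adjusted p = 0.771). miR-10c-5p, with 186 reads over the 24 hpf libraries and 0 over those of 6 hpf, stood higher at 24 hpf by at least 18.4-fold after TMM scaling and by at least 42.5-fold with the library totals of the authors (edgeR adjusted p = 0.0717 after TMM scaling). Each bound takes 3 reads over the 6 hpf libraries as the floor. It is not firm, since counts of 10 or more in one library beside 0 in the other library of the same stage occurred 50 times in the table.

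After TMM scaling the 24 hpf libraries lay above those of 6 hpf for miR-10b-5p, and for 31.9% of all tested microRNAs. In the authors' RPM they did so for miR-10a-5p and miR-10b-5p, and for 50.7% of all tested microRNAs. miR-10c-5p is not counted here, because its separation was fixed by passing the filter through its 24 hpf reads only. Such separation was thus common among the tested microRNAs.

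The calls changed with the scaling. With the library totals of the authors, miR-10b-5p rose by 2.27 (SE 0.38, edgeR adjusted p = 0.0379), while miR-10a-5p stood at 1.11 and did not pass (edgeR adjusted p = 0.0531). On those totals 27.5% of all tested microRNAs were called. With library size only, miR-10b-5p stood at 2.17 and did not pass (edgeR adjusted p = 0.0937), against 23.2% of all tested microRNAs called. Over the 69 tested microRNAs the median difference also moved with the scaling. It stood at -0.36 for TMM, 0.08 for TMM worked out without the miR-430 family, 0.18 for RLE, 0.73 for library size only, and 0.88 on the authors' totals. Relative to that median, miR-10b-5p stood at 1.41 after TMM scaling and at 1.39 on the authors' totals, and miR-10a-5p at 0.24 and 0.23. These places moved with single libraries and with the filter. miR-10a-5p stood at -0.35 relative to the median without 6 hpf replicate 1 and at -0.25 with no filter, and was itself the median without 6 hpf replicate 2. miR-10b-5p stood at 0.83 relative to the median without 6 hpf replicate 2.

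The log2 difference of miR-10b-5p exceeded that of miR-10a-5p by 1.17 between 24 and 6 hpf, and by 1.12 to 1.23 over the scalings and filters tried. Without 24 hpf replicate 2 this excess was 0.70, and without 6 hpf replicate 1 it was 1.63. It was not tested.

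Between 11 and 6 hpf, edgeR and DESeq2 called neither miR-10a-5p nor miR-10b-5p, against 5.8% of all tested microRNAs by edgeR and 10.1% by DESeq2. Neither had an unadjusted p under 0.05 by either tool, against 13% of all tested microRNAs by edgeR and 17.4% by DESeq2. miR-10a-5p differed by 0.19 (SE 0.33, 95% interval -0.72 to 1.09, edgeR adjusted p = 0.797) and miR-10b-5p by 0.49 (SE 0.46, 95% interval -0.78 to 1.76, edgeR adjusted p = 0.688). The value of miR-10b-5p was 0.32 without 11 hpf replicate 1 and 0.77 without 6 hpf replicate 1. miR-10c-5p had no reads at either stage, so it could not be called and is not counted here. In the authors' RPM the libraries of 11 hpf lay above those of 6 hpf for miR-10a-5p and miR-10b-5p, as they did for 34.8% of the tested microRNAs. After TMM scaling this held for miR-10b-5p alone, and for 18.8% of the tested microRNAs.

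Between 24 and 11 hpf, edgeR called neither miR-10a-5p nor miR-10b-5p, and 0% of all tested microRNAs. At an unadjusted p under 0.05 edgeR counted neither miR-10a-5p nor miR-10b-5p, against 20.3% of all tested microRNAs. DESeq2 also called neither, against 4.35% of all tested microRNAs. Its unadjusted p was under 0.05 for neither miR-10a-5p nor miR-10b-5p, and for 20.3% of all tested microRNAs. Both tools gave miR-10c-5p an unadjusted p under 0.05, as a description only. miR-10c-5p stood higher at 24 hpf by at least 28.3-fold after TMM scaling and by at least 43.9-fold with the authors' totals (edgeR adjusted p = 0.101 after TMM scaling). miR-10b-5p differed by 0.56 (SE 0.46, 95% interval -0.69 to 1.81, edgeR adjusted p = 0.569). Without 24 hpf replicate 2 its value was 0.17, and without 24 hpf replicate 1 it was 1.12. miR-10a-5p differed by -0.31 (SE 0.33, 95% interval -1.21 to 0.59, edgeR adjusted p = 0.668), and by 0.33 with the authors' totals. After TMM scaling the 24 hpf libraries lay above those of 11 hpf for miR-10b-5p, and for 26.1% of all tested microRNAs. In the authors' RPM they did so for miR-10a-5p and miR-10b-5p, and for 40.6% of all tested microRNAs. miR-10c-5p is again not counted. The 3 comparisons share libraries, so their values for a member are not independent.

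**Figure D3:**
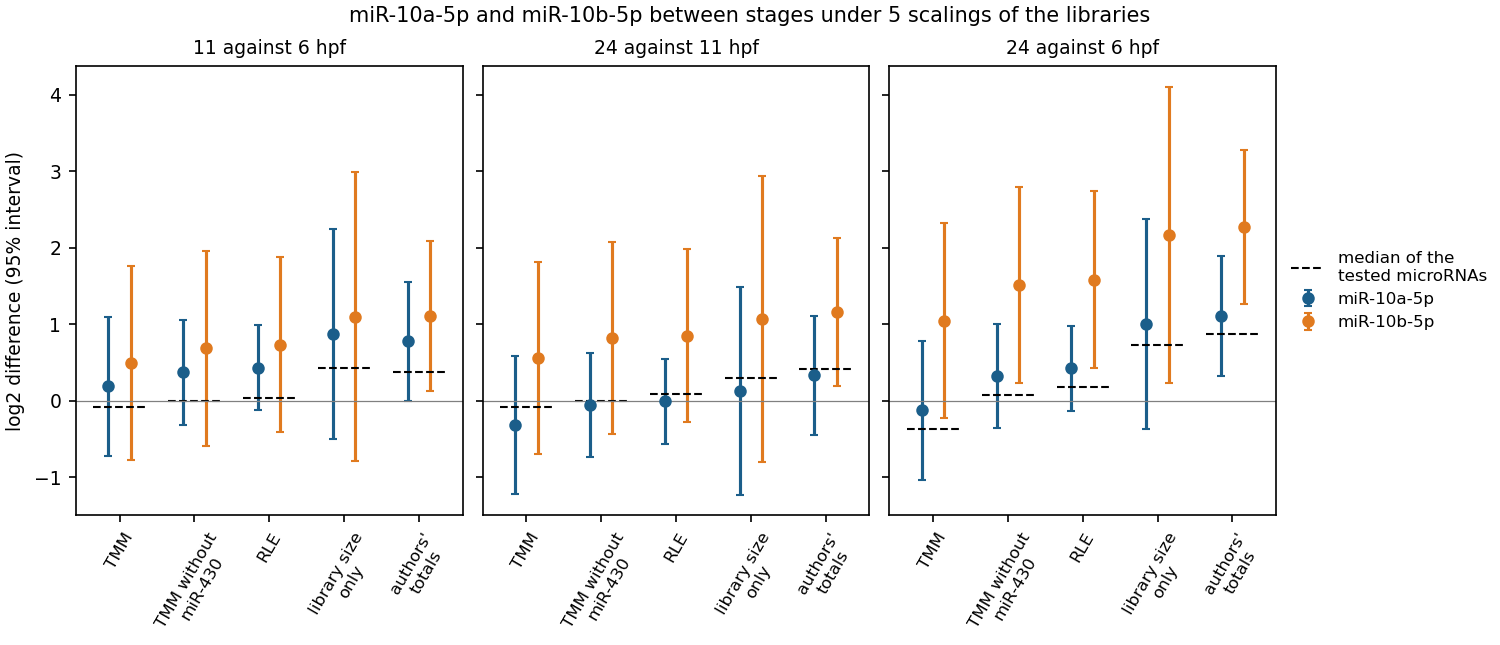
log2 difference of miR-10a-5p (blue) and miR-10b-5p (orange) between stages, with 95% intervals from edgeR, under 5 ways of scaling the 6 libraries; dashed lines give the median of the 69 tested microRNAs. Between 24 and 6 hpf miR-10b-5p runs from 1.05 with TMM to 2.27 with the authors' totals and miR-10a-5p from -0.12 to 1.11, and the median moves with them.

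The relatives miR-99 and miR-100-5p each had more reads than any member in every library. miR-100-5p had 131 and 227 reads at 6 hpf, 242 and 215 at 11 hpf, and 432 and 1124 at 24 hpf. Like miR-10b-5p, it had more reads in 24 hpf replicate 2 than in replicate 1. These reads are not scaled, and replicate 2 was the larger library. It had 78973 microRNA reads against 66864, and an authors' total of 21230244 against 11713902. miR-99 had 135 and 180, 266 and 193, and 166 and 292 reads. Of these 2, miR-99 fell between 24 and 6 hpf (log2 difference -1.22, SE 0.21, edgeR adjusted p = 0.0401) and miR-100-5p did not pass (0.32, SE 0.32, edgeR adjusted p = 0.491). With the authors' totals the calls changed places: miR-100-5p rose by 1.52 (edgeR adjusted p = 0.0420) and miR-99 stood at 0.01 (edgeR adjusted p = 0.959). Leaving out 24 hpf replicate 1 or 2 also ended the call on miR-99 (edgeR adjusted p = 0.267 and 0.230), as did leaving out either 6 hpf library (0.125 and 0.477) or 11 hpf replicate 2 (0.0502). The call on miR-99 held in 2 of 14 alternatives in all. Their sequences differ by A16T alone, so their counts carry the same uncertainty.

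The microRNAs whose TMM-scaled log2 level was most like that of a member over the 6 libraries were ranked by Pearson's r, as a description only. Nearest to miR-10a-5p were miR-30d (r = 0.64), miR-145-5p (0.62) and miR-7a (0.62), all of them weak. Nearest to miR-10b-5p were miR-183-5p (r = 0.91), a sensory organ microRNA, miR-146b (0.86) and miR-26a-5p (0.84). Nearest to miR-10c-5p were miR-16c-5p, miR-210-5p and the muscle microRNA miR-206-3p (r = 0.99 or more each), which rests on the contrast between 4 libraries at or near 0 and 2 with reads. Among the members, r was -0.28 for miR-10a-5p and miR-10b-5p and 0.67 for miR-10b-5p and miR-10c-5p. These values share the libraries and their scaling.

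Because Hox-cluster microRNAs are known from trunk tissues, microRNAs of other cell types were counted in the same libraries. The sensory organ list (miR-96, miR-182 and miR-183, all 3 listed) summed to 28.0 and 31.3 CPM at 6 hpf, 949 and 145 at 11 hpf, and 2617 and 4090 at 24 hpf. The muscle list (3 listed, miR-133 not among them) summed to 280.0 and 157 at 6 hpf, 463 and 353 at 11 hpf, and 882 and 1254 at 24 hpf. Its members differed from each other. miR-206-3p had 0 and 0 reads at 6 hpf, 1 and 0 at 11 hpf, and 51 and 50 at 24 hpf. miR-1 had 10 and 10, 20 and 17, and 8 and 27 reads, and miR-499-5p had 22 reads in 24 hpf replicate 2 and 0 elsewhere. The neural list (3 listed) summed to 0 and 15.7, 66.2 and 41.5, and 748 and 557, and different members carried it at 24 hpf. miR-124-3p, with 32 reads, and miR-9-5p, with 18, made up the sum in 24 hpf replicate 1, where miR-9-4-3p had 0. In replicate 2 miR-9-4-3p had 42 reads, miR-9-5p had 2 and miR-124-3p had 0. The sums of these 3 lists were highest in both 24 hpf libraries, as was miR-10b-5p. miR-10c-5p is not counted here, because it passed the filter only through its 24 hpf reads. Among the list members, miR-183-5p was highest in both 24 hpf libraries. This also held for miR-206-3p and miR-182-5p, which like miR-10c-5p passed the filter only through their 24 hpf reads. It did not hold for miR-1, miR-9-5p or miR-96-5p, nor for miR-124-3p, miR-9-4-3p or miR-499-5p, each absent from 1 of the 24 hpf libraries. miR-96-5p had 0 and 2 reads at 6 hpf, 3 and 4 at 11 hpf, and 26 and 1 at 24 hpf. These sums are in CPM, which depend on the share of miR-430. How many of all microRNAs were highest in both 24 hpf libraries in CPM was not counted. In the authors' RPM, 50.7% of the tested microRNAs had both 24 hpf libraries above those of 6 hpf. The part of these lists in the results of miR-10b-5p and miR-10c-5p was not tested.

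The sums of the other lists did not follow the stages in this way. The mesenchyme and cartilage list (8 listed) summed to 7923 and 5873 CPM at 6 hpf, 11499 and 5996 at 11 hpf, and 7807 and 9940 at 24 hpf, so that the stages overlapped. Most of its reads were of miR-143 and miR-199-5p. Its member miR-140-3p, a cartilage microRNA, had 3 and 1 reads at 6 hpf, 4 and 5 at 11 hpf, and 96 and 134 at 24 hpf. It rose between 24 and 6 hpf (log2 difference 4.01, SE 0.82, edgeR adjusted p = 0.0453). It passed in 8 of 14 alternatives, and omitting any 1 library of 6 or 24 hpf ended the call (edgeR adjusted p = 0.0784 to 0.240). Its part in the results of miR-10b-5p and miR-10c-5p was not tested either. The epidermal list (3 listed) lay between 166 and 924 and was highest at 6 hpf in replicate 2, and the endothelial list (3 listed) lay between 145 and 883. miR-122 of the liver had 15 reads in 6 hpf replicate 1 and 0 elsewhere. Over all 24 listed microRNAs of other cell types, the share of microRNA reads was 0.963% and 0.742% at 6 hpf, 1.41% and 0.685% at 11 hpf, and 1.26% and 1.68% at 24 hpf. With the miR-430 family left out of the denominator it was 7.77% and 7.89% at 6 hpf, 7.12% and 4.46% at 11 hpf, and 4.77% and 4.87% at 24 hpf. This share was therefore lower in both 24 hpf libraries than in those of 6 hpf, while out of all microRNA reads it was higher. It mostly followed the mesenchyme and cartilage list, which held 283 of the 344 reads and 375 of the 474 at 6 hpf. At 24 hpf that list held 522 of 840 and 785 of 1329. The sensory organ, muscle and neural sums went the other way out of the reads without miR-430, each higher in both 24 hpf libraries than in those of 6 hpf. The sensory organ list held 1 of 4429 and 2 of 6008 such reads at 6 hpf, and 175 of 17602 and 323 of 27293 at 24 hpf. Of the same totals, the muscle list held 10 and 10, then 59 and 99, and the neural list 0 and 1, then 50 and 44. How many of all microRNAs were higher on that denominator was not counted. No microRNA of the blood list (miR-142, miR-144, miR-223 and miR-451) was among those listed. The germ cell label was not checked against a marker, since miR-202, a gonad microRNA, was not among them either.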

How the data were processed

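Small RNA libraries came from picked primordial germ cells, made by a microscale method per the labels' protocols, 2 per stage at 6, 11 and 24 hpf. The submitters' processing notes name Bowtie 1.0.0-5 and the build danRer11. No source used here gives the microRNA annotation or the rule for reads with several matches. The deposited counts are whole reads per mature microRNA, not normalised. The deposited RPM values are each library's counts scaled by the authors with 1 factor, from which follow totals of 9019179 to 21230244 reads, of which microRNA reads were 0.317% to 0.571%. What those totals count is not given.

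The main test was edgeR 4.0.16 (R 4.3.3): filterByExpr (minimum count 10), TMM (factors 0.55 to 1.68), default quasi-likelihood fit of the 6 libraries by stage, Benjamini-Hochberg over 69 microRNAs. SE is the log2 difference divided by the square root of F. The fit was run on simulated counts with large known changes and the same spread for all microRNAs. That setting differs from these data, so no result here rests on it. Alternatives were other scalings and filters, DESeq2 1.42.0, the replicate number as a term, and each library left out. The lone library left in a stage was then taken to vary like those of other stages. Intervals for shares are exact (SciPy 1.17.1). Sequences are those of the deposited table. Every member was named. Of the others, the 3 most alike by Pearson's r on the log2 scale (prior count 2), miR-99, miR-100 and any with a member's seed were named. The other microRNAs of the cell type lists that are named, and the microRNAs seen at 24 hpf alone, were chosen after their values were seen. Members and lists were chosen with earlier results of these data known. Figures were drawn with matplotlib 3.10.9.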

Additional observations from a re-analysis of the deposited data

How the results depend on the processing

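Between 24 and 6 hpf, 12 microRNAs changed, and 19 with the authors' library totals, 5 with no filter, 4 with the replicate block, and 0 to 28 with 1 library left out. With the authors' totals 15 were higher and 4 lower, against 6 and 6 with TMM. Between 11 and 6 hpf, 4 changed, and 1 with the authors' totals, 7 with DESeq2, and 0 to 3 with 1 library left out (0 without 6 hpf replicate 2, and 2 without 11 hpf replicate 1 or without 24 hpf replicate 1). Between 24 and 11 hpf, 0 changed, and 8 with RLE, 3 with the authors' totals, 3 with DESeq2 and 1 with a mean of at least 100 reads in a stage.

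miR-10a-5p between 24 and 6 hpf (-0.12) turned to 0.43 with RLE, 1.0 with library size only, 1.11 with the authors' totals, 0.32 with TMM worked out without the miR-430 family, 0.71 with the stricter filter, 0.42 with DESeq2, 0.41 without 6 hpf replicate 2 and 0.02 without 24 hpf replicate 1, with a range of -0.30 to 0.41 over the fits that leave out 1 library. Between 24 and 11 hpf (-0.31) it turned to 0.13 (library size only) and 0.33 (authors' totals). Between 11 and 6 hpf (0.19) it turned to -0.10 without 11 hpf replicate 1, in a range of -0.10 to 0.54 with 1 library left out. No alternative called it, and the cause of these turns was not tested beyond the shift of the median given above.

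miR-10b-5p stayed above 0 in all 14 alternatives of each comparison and was called in 1, between 24 and 6 hpf with the authors' totals. miR-10c-5p entered the test only through its 24 hpf reads, so its calls are not counted. Its adjusted p between 24 and 6 hpf ran from 0.0325 to 0.279 over 13 alternatives, as a description, and the stricter filter left it out. Without a filter miR-10d-5p, miR-10d-3p and miR-196a-5p entered the test and were not called in any comparison. Of all 134 microRNAs that fit called 5 between 24 and 6 hpf, 3 between 11 and 6 hpf, and 0 between 24 and 11 hpf. The miR-10d arms had 0 reads at 6 and 11 hpf, so they could not be called between those stages.

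The members' share of microRNA reads (0.161%, 0.302% and 0.600% at 6, 11 and 24 hpf) was 1.47%, 1.70% and 1.99% of reads outside the miR-430 family, and 6.74, 12.2 and 27.9 RPM on the authors' scale. Libraries with the same replicate number did not deviate together (correlations of deviations between stages 0.14, 0.06 and -0.24), so the numbers were not taken as pairs. The replicate block called neither miR-10a-5p nor miR-10b-5p. Depth limits the rarest members, since miR-196a-5p had at most 2 reads in a library.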
